A study of Mus musculus with 14 samples.

Results

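The genes described here encode proteins that build or steer the spliceosome, the machine that removes introns from pre-mRNA. They are 39 genes listed by name in 3 families: 10 of the SF3a, SF3b and U2AF complexes, 13 SR and SR-related genes, and 16 hnRNP and PTB genes. All 39 were found by Ensembl identifier among the 22598 genes of the deposited tables, and 38 were among the 11591 genes with enough reads to be tested. The remaining member, Hnrnpa3, had too few reads for a test.

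The study compared mouse T helper cells that lack 3 Argonaute genes with wild-type cells. Naive CD4 T cells, sorted for CD4 and TCRb from the spleens of knockout C57BL/6J mice and wild-type littermates, were driven in culture to the Th2 fate, the helper fate of allergic and antiparasite responses. The sample labels give the later time as day 14, which is used here, while the design text also speaks of a slightly later day. Both day 14 groups, Ago134 knockout (lacking Ago1, Ago3 and Ago4) and wild type, had 3 libraries, and both day 7 groups, Ago134 knockout and wild type, had 4. No Cre driver is named in the labels. Neither do they tell if each library is a mouse or culture of its own, so every p-value measures only the spread between these libraries, which may be technical. Because RNA was taken in bulk, fewer cells of a kind and less RNA per cell cannot be told apart.

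SF3a and SF3b are parts of the U2 snRNP and anchor it at the branch site of an intron, while U2AF recognises the pyrimidine tract and the intron end just downstream. SR proteins carry arginine-serine domains, bind enhancers in exons and mostly favour inclusion of the exon they bind. hnRNP and PTB proteins coat pre-mRNA and often oppose inclusion. Many SR and hnRNP genes hold conserved alternative exons whose inclusion sends the mRNA to nonsense-mediated decay, and read counts per gene do not separate these isoforms.

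Each library held between 23326248 and 35803197 counted reads, and 12534 to 13241 genes had reads. Ago1, one of the deleted genes, was at 0.0201 ± 0.0348 CPM (read counts scaled to library depth with TMM factors) in knockout cells at day 14, against 3.00 ± 0.843 CPM in wild-type cells (SD, n = 3 each). At day 7 it had 0 reads in all 4 knockout libraries, against 4.49 ± 0.691 CPM in wild-type cells (SD, n = 4). Ago3 was at 1.42 ± 0.188 CPM in knockout cells, against 2.86 ± 1.35 CPM in wild-type cells at day 14, and at 1.98 ± 0.206 CPM in knockout cells, against 3.64 ± 0.789 CPM in wild-type cells at day 7. Ago4 was at 3.93 ± 1.34 CPM in knockout cells, against 1.46 ± 1.24 CPM in wild-type cells at day 14, and at 3.17 ± 0.323 CPM in knockout cells, against 0.617 ± 0.252 CPM in wild-type cells at day 7. Which exons were deleted is not stated in the labels, so reads of Ago3 and Ago4 outside the deleted part do not check them. The 9 CD4 T cell markers summed to 4913 to 7565 CPM over all libraries. The 6 B cell markers summed to at most 4.21 CPM, and Ms4a2, which marks mast cells and basophils, was at 0 in every library. The 6 mast cell and basophil markers, led by Cpa3, summed to 23.4 to 132 CPM in knockout cells and 3.81 to 8.03 CPM in wild-type cells at day 14, and to 52.4 to 86.7 CPM in knockout cells and 34.2 to 69.6 CPM in wild-type cells at day 7. Of these, Cpa3 (log2 fold change 3.8, adjusted p = 0.027, edgeR) and Kit (6.63, adjusted p = 0.0115, edgeR) were higher in the knockout at day 14. The list did not move as one. Hdc averaged 1.75 ± 0.812 CPM in knockout cells, against 2.25 ± 0.504 CPM in wild-type cells at day 14 (SD). Fcer1a and Gata2 had no reads in the knockout day 14 libraries, and both had some in the wild-type day 14 group. At day 14 the 9 myeloid and dendritic markers summed to 18 to 30.6 CPM in knockout cells, against 9.82 to 31.9 in wild-type cells. At day 7 they summed to 4.43 to 21.4 CPM in knockout cells, against 1.78 to 4.25 in wild-type cells. Itgam and Mpeg1 were at 0 throughout. Of the 4 tested, Adgre1 and Cd68 were higher at day 14 than at day 7 in both genotypes. Cd74 and Lyz2 did not pass an adjusted p of 0.05 in either. Adgre1 rose from a mean of 1.39 to 18.7 CPM in knockout cells (log2 fold change 3.75, adjusted p = 0.000225, edgeR). Its wild-type means were 1.23 and 12.9 CPM (3.4, adjusted p = 0.000283, edgeR). The values of Cd68 were 1.79 in knockout cells (adjusted p = 0.0307) and 2.77 in wild-type cells (adjusted p = 0.00251, edgeR). The CD8 T and NK cell markers reached at most 51.9 CPM and the erythroid markers 0.739 CPM. The part of these markers in the results was not tested.

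Library 3 of the wild-type day 14 group stood apart from its group. Over 20 genes of the G2 and M phases of the cell cycle, the median log2 level relative to each gene's mean over all libraries was 2.43 in that library, against -0.84 and -0.90 in the other two. The same median was 2.39, 2.72 and 3.19 in the knockout day 14 libraries, and it lay between -1.29 and 0.06 in knockout cells and between -1.39 and -1.16 in wild-type cells at day 7. Of the 38 tested members, 24 had their highest wild-type day 14 level in library 3, which was not counted over all tested genes. Counts of members called in the main fit and medians over the members that use this group are also given without that library, which leaves wild-type libraries 1 and 2. Counts at an unadjusted p and counts of members without overlap are given only with it. Leaving it out lowers the wild-type mean of each member that was highest in it. Larger differences of the members in those fits are thus partly built in and are no independent support.

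Splicing factor mRNAs were abundant in all groups. The 39 members together made up 6585 ± 413 CPM in knockout cells, against 5568 ± 1238 CPM in wild-type cells at day 14 (SD, n = 3 each), and 6901 ± 508 CPM in knockout cells, against 7305 ± 384 CPM in wild-type cells at day 7 (SD, n = 4 each). The wild-type day 14 libraries 1, 2 and 3 had sums of 4856, 4850 and 6997 CPM. The knockout sums were 6158, 6615 and 6981 CPM, so the day 14 groups overlapped only through the third wild-type library. A separation without that library follows from leaving it out and is no independent support.

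Per kilobase of coding length, the members had a median level of 66.4 CPM per kb, against 15.6 for all tested genes, as means over the 4 groups. In the SF3a, SF3b and U2AF family the highest was Sf3b2, an SF3b subunit, with a mean over groups of 227 CPM per kb. Its libraries had 421, 784 and 519 CPM in the knockout and 635, 743 and 452 CPM in wild type at day 14, and 629, 573, 492 and 417 CPM in the knockout and 660.5, 701, 685 and 678 CPM in wild type at day 7. The day 14 groups overlapped, and every knockout library lay below every wild-type library at day 7.

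Among SR genes Srsf9 stood first with a mean of 259.8 CPM per kb. It had 179, 191 and 289 CPM in the knockout and 179, 193 and 156 CPM in the wild-type libraries at day 14, and 162, 141, 172 and 211 CPM in the knockout and 115, 121, 132 and 144 CPM in the wild-type libraries at day 7, with overlap at both days. Srsf6 (251) and Srsf2 (243) followed closely, and the order of the 3 changed between groups. Srsf2 was highest in knockout cells at day 14 (449 ± 187 CPM per kb), Srsf9 in wild-type cells at day 14 (263 ± 28.2), and Srsf6 at day 7 in both knockout (310.2 ± 12.9) and wild-type cells (274 ± 30).

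Hnrnpab, an hnRNP that also binds AU-rich RNA, had the highest mean over groups, 501 CPM per kb, though in wild-type cells at day 7 Hnrnpu (492 ± 74.2) and Ptbp1 (447 ± 36.8) averaged above Hnrnpab (445 ± 63). Its libraries had 430.2, 549 and 852 CPM in the knockout and 331, 466 and 497 CPM in wild type at day 14, and 527, 539, 511 and 539.9 CPM in the knockout and 381, 426, 453 and 532 CPM in wild type at day 7, with overlap at both days. Next came Hnrnpu, Hnrnpc and Ptbp1 with means of 362, 358 and 331 CPM per kb, whose order also changed between groups: Hnrnpc was highest of the 3 in knockout cells at day 14 (375 ± 73.2), and Hnrnpu in wild-type cells at day 7 (492 ± 74.2).

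**Figure D1:**
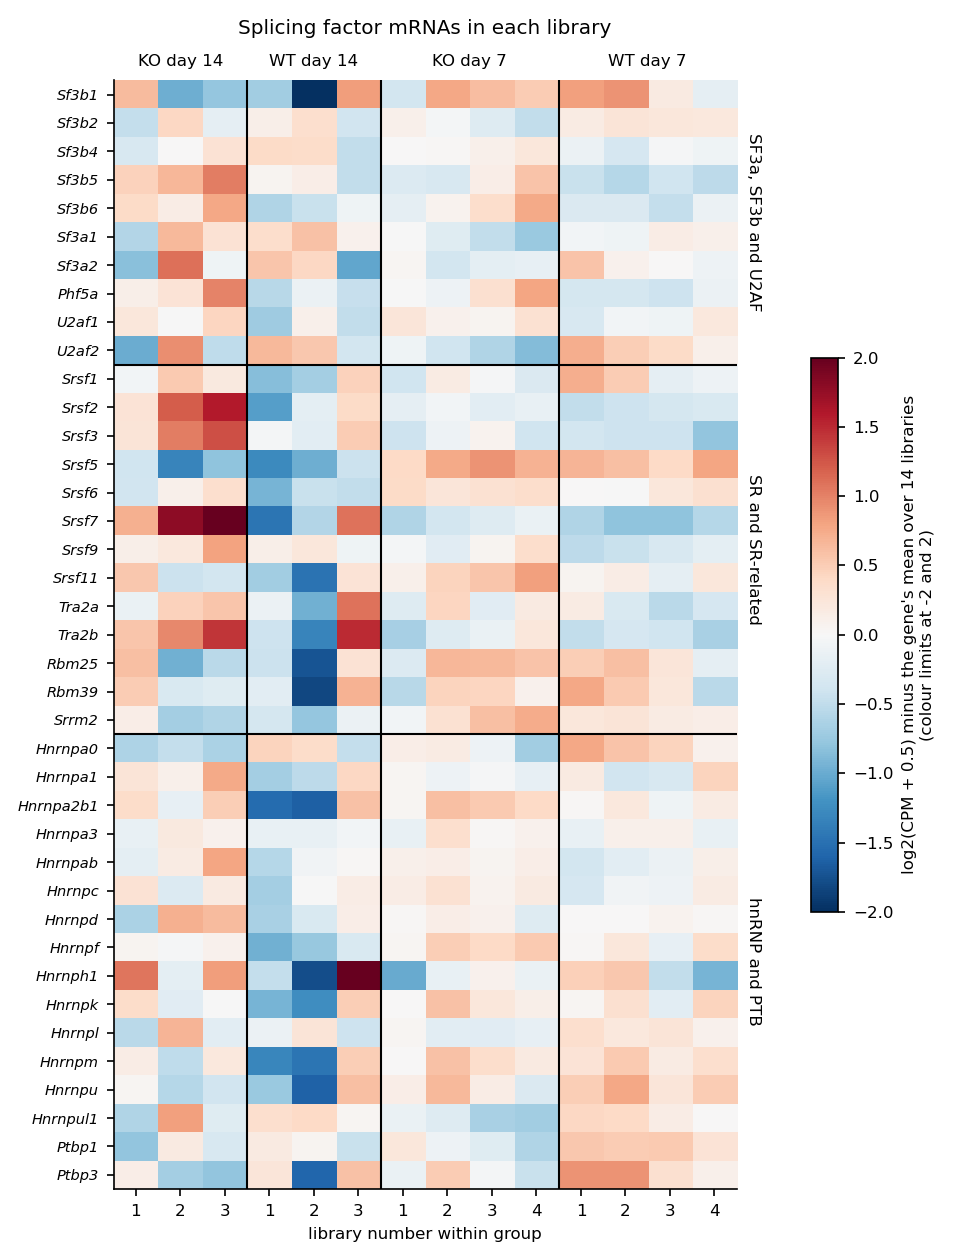
Level of each of the 39 members (rows, by family) in each of the 14 libraries (columns, by group). Colour gives log2(CPM + 0.5) minus the mean of that gene over all libraries. Library 3 of wild type at day 14 differs from its 2 group mates in most SR and hnRNP rows, and Srsf5 is low in all 6 day 14 libraries.

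A few members had almost no reads in these tables. Hnrnpa1, a founding hnRNP, had 18, 13 and 32 reads in the knockout and 1, 3 and 21 reads in the wild-type libraries at day 14. It had 9, 9, 11 and 6 reads in the knockout and 17, 5, 6 and 16 reads in the wild-type libraries at day 7. Hnrnpa3, its close relative, had 0, 4 and 3 reads in the knockout and 0, 0 and 1 reads in the wild-type libraries at day 14, and 0, 6, 2 and 2 reads in the knockout and 0, 3, 3 and 0 reads in the wild-type libraries at day 7. Counts this low leave both genes imprecise. Srsf3, the smallest SR protein, had 24, 47 and 65 reads in the knockout and 13, 11 and 30 reads in the wild-type libraries at day 14, and 6, 13, 18 and 6 reads in the knockout and 10, 8, 8 and 2 reads in the wild-type libraries at day 7. Tra2a, an SR-related enhancer-binding protein, had 27, 44 and 53 reads in the knockout and 22, 7 and 82 reads in the wild-type libraries at day 14, and 16, 42, 23 and 25 reads in the knockout and 39, 20, 15 and 15 reads in the wild-type libraries at day 7. These 4 were the members under 5 CPM in every group.

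Most of the coding sequence of 3 of those 4 genes occurs a second time in the annotated transcripts of the mouse genome. The share of 50-base stretches of the coding sequence that another annotated gene also holds was 97.7% for Hnrnpa3 (43 other genes, 41 of them pseudogenes), 89.4% for Srsf3 (5 other genes, 4 of them pseudogenes) and 80.8% for Hnrnpa1 (19 other genes, 18 of them pseudogenes). It was 0% for Tra2a. To show how close these copies are, the first 60 coding bases of Srsf3 (chromosome 17, plus strand) and of Hnrnpa1 (chromosome 15, plus strand) are given with the matching stretch of a processed pseudogene, Gm9761 on chromosome 3 and Gm10052 on chromosome 9, both on the minus strand. All 4 are written 5′ to 3′ in lower case, with no capitals because no base differs, and come from the GENCODE transcripts of release 21 (GRCm38).
Srsf3: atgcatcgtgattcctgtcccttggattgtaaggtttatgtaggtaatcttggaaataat
Gm9761: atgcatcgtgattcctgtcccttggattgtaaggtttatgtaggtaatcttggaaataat
Hnrnpa1: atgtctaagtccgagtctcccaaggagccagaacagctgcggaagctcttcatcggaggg
Gm10052: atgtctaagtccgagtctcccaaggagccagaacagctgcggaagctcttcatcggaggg

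Read counts of such genes depend on how reads that match several places were handled, which no source used here states. Of the 39 members, 13 shared at least 20% of their 50-base stretches with another gene, and 13% of 11422 tested genes with coding sequence did so. The 13 had a median level of 32.5 CPM per kb, against 81.5 for the other 26. The 8 members at 75% or more (Hnrnpa3, Hnrnpf, Srsf3, U2af1, Hnrnpa1, Tra2b, Hnrnpk and Sf3b4) had a median of 5.96 CPM per kb, although Hnrnpk among them reached 171. Levels of these 8 genes are uncertain, and so are those of Srsf5 (55.2%), U2af2 (42.9%), Srsf2 (39.1%, where the Mfsd11 gene overlaps it), Hnrnpc (38.5%) and Ptbp1 (21.5%). Tra2a and Srsf1 (7.32%) were low without such copies, at 1.23 and 15.2 CPM per kb.

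**Figure D2:**
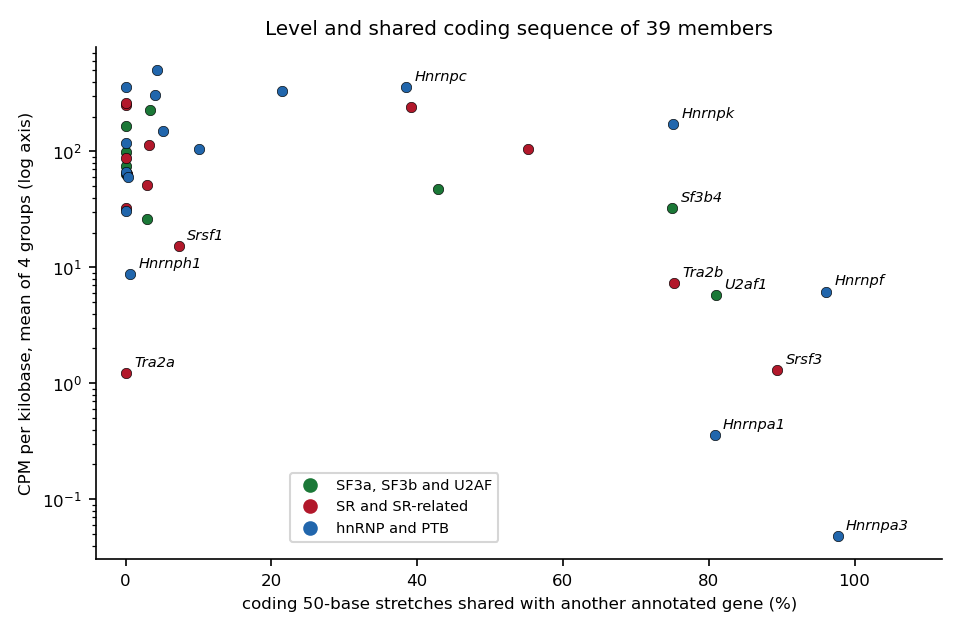
Level of the 39 members (vertical axis, CPM per kilobase of coding length, mean of the 4 groups, log axis) against the share of their coding 50-base stretches found in another annotated gene (horizontal axis, percent). Points are genes, coloured by family. The lowest levels are those of Hnrnpa3, Hnrnpa1, Tra2a and Srsf3, and 3 of these share over 80% of their stretches.

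At day 14 no member passed the test between knockout and wild-type cells, and the SR genes had the most positive values. All 13 SR and SR-related genes had a positive log2 fold change under the 3 scalings tried, and 10 of 13 with the trends over coding length and GC content removed. Their median was 0.45, and the largest values were those of Srsf7 (1.84), Srsf2 (1.31) and Srsf3 (1.23). In the SF3a, SF3b and U2AF family, 3 small SF3b subunits led, Phf5a (0.90), Sf3b5 (0.83) and Sf3b6 (0.83), while the family median was 0.08. The 15 tested hnRNP and PTB genes had a median of 0.22 and ranged between -0.76 for Hnrnpa0 and 1.25 for Hnrnpa1. The median over the 38 members was 0.29, against 0.01 for all tested genes. Without wild-type library 3 the medians were 1.02 for SR, 0.15 for SF3a, SF3b and U2AF, and 0.83 for hnRNP and PTB genes.

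The test was edgeR's quasi-likelihood test with Benjamini-Hochberg adjustment over all tested genes at 0.05. It called 0 of the 38 members and 1.42% of all tested genes. At an unadjusted p under 0.05 there were 10 members (26.3%), against 21.7% of all genes, and DESeq2 called 7 members (and 8.57% of all genes) and limma-voom 2 (and 3.49%). In 6 members (15.8%) the knockout and wild-type libraries did not overlap, against 15% of all genes. They were Sf3b5, Sf3b6, Phf5a, Srsf6 and Hnrnpf, higher in every knockout library, and Hnrnpa0, lower in every knockout library. These last shares, of members under an unadjusted p of 0.05 and of members without overlap, were near the background.

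Srsf7 (chr17:80200080-80207307, minus strand, GRCm38), an SR protein with a zinc knuckle, had 86.1, 181 and 320.4 CPM in the knockout libraries, against 18.6, 34.7 and 111 CPM in the wild-type libraries. Wild-type library 3 lay above the lowest knockout library, so that the groups overlapped. The log2 fold change of 1.84 ± 0.54 (SE), a 3.57-fold difference, had an adjusted p of 0.0876 (edgeR).

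Srsf2 (chr11:116849901-116853094, minus strand), a marker of nuclear speckles, had 166, 318 and 413 CPM in the knockout libraries and 63.4, 119.6 and 179 CPM in the wild-type libraries. Again only wild-type library 3 reached into the knockout range. The log2 fold change was 1.31 ± 0.34 (SE) with an adjusted p of 0.0646 (edgeR).

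Srsf6 (chr2:162931528-162937121, plus strand), an SR protein with paired RNA-binding domains, had 224, 314 and 367 CPM in the knockout libraries against 152, 214 and 207 CPM in the wild-type libraries, with no overlap. Its log2 fold change was 0.66 ± 0.20 (SE) with an adjusted p of 0.094 (edgeR). At the low end of the SR family stood Srrm2 (chr17:23790532-23824741, plus strand), the large speckle scaffold protein, with 453, 259 and 273 CPM in the knockout libraries and 323, 241 and 382 CPM in the wild-type libraries. These overlapped, and the log2 fold change of 0.06 ± 0.25 (SE) turned to -0.25 without knockout library 1 and was 0.68 with the trends over coding length and GC content removed, where Srrm2 was no longer lowest.

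Phf5a, a small SF3b subunit near the branch-site pocket, had 25.6, 28.5 and 47.4 CPM in the knockout libraries and 15.8, 21.6 and 16.9 CPM in the wild-type libraries. The groups did not overlap, and the log2 fold change was 0.90 ± 0.29 (SE) with an adjusted p of 0.115 (edgeR). Sf3b5 and Sf3b6, named here after their values were seen, showed the same order. Sf3b5 had 32.7, 37.9 and 48.6 CPM in the knockout libraries against 24.5, 26.1 and 16.6 CPM in the wild-type libraries. Sf3b6, which touches the branch-point adenosine, had 77.8, 66.1 and 102 CPM in the knockout libraries against 38.9, 43.6 and 55.9 CPM in the wild-type libraries. Neither passed the test, with adjusted p of 0.122 for Sf3b5 and 0.101 for Sf3b6 (edgeR). U2af2, the U2AF subunit that binds the pyrimidine tract, was lowest in its family with 30.8, 119 and 43.4 CPM in the knockout and 97.2, 90.4 and 47.8 CPM in the wild-type libraries. Knockout library 2 held the highest value of all 6. The log2 fold change was -0.28 ± 0.42 (SE), and 0.05 without knockout library 1.

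Hnrnpf (chr6:117900324-117925622, plus strand), which binds runs of guanines, had 7.89, 7.51 and 8.11 CPM in the knockout libraries and 3.68, 4.27 and 6.06 CPM in the wild-type libraries. The groups did not overlap, and the log2 fold change was 0.75 ± 0.27 (SE) with an adjusted p of 0.143 (edgeR). Hnrnpa0, a binder of AU-rich elements, lay the other way, with 38.1, 41.9 and 37.8 CPM in the knockout and 80.1, 76.3 and 42.3 CPM in the wild-type libraries. Its log2 fold change was -0.76 ± 0.28 (SE) with an adjusted p of 0.155 (edgeR). Hnrnpa1 had the highest value of the family, 1.25 ± 0.77 (SE), on the few reads given above.

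Without wild-type library 3, which leaves wild-type libraries 1 and 2, 14 of the 38 members passed at day 14 (36.8%). Of all tested genes 22.5% passed in that fit. The SR and SR-related genes among them were Srsf7 (log2 fold change 2.88), Tra2b (2.01), Srsf2 (1.71), Srsf1 (1.05), Srsf11 (1.02) and Srsf6 (0.72), all higher in the knockout. The hnRNP genes among them were Hnrnpa1 (3.13), Hnrnpa2b1 (1.86), Hnrnph1 (1.74), Hnrnpm (1.37), Hnrnpk (1.15) and Hnrnpf (0.98), and Hnrnpa0 (-1.0) was lower. Sf3b6 (0.99) was the only one of the SF3a, SF3b and U2AF family. The median over members was 0.82 in this fit, against 0.13 for all genes. Without knockout library 1 the fit called 4 members, Hnrnpd, Srsf2, Srsf6 and Srsf7, and 2.45% of all genes.

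**Figure D3:**
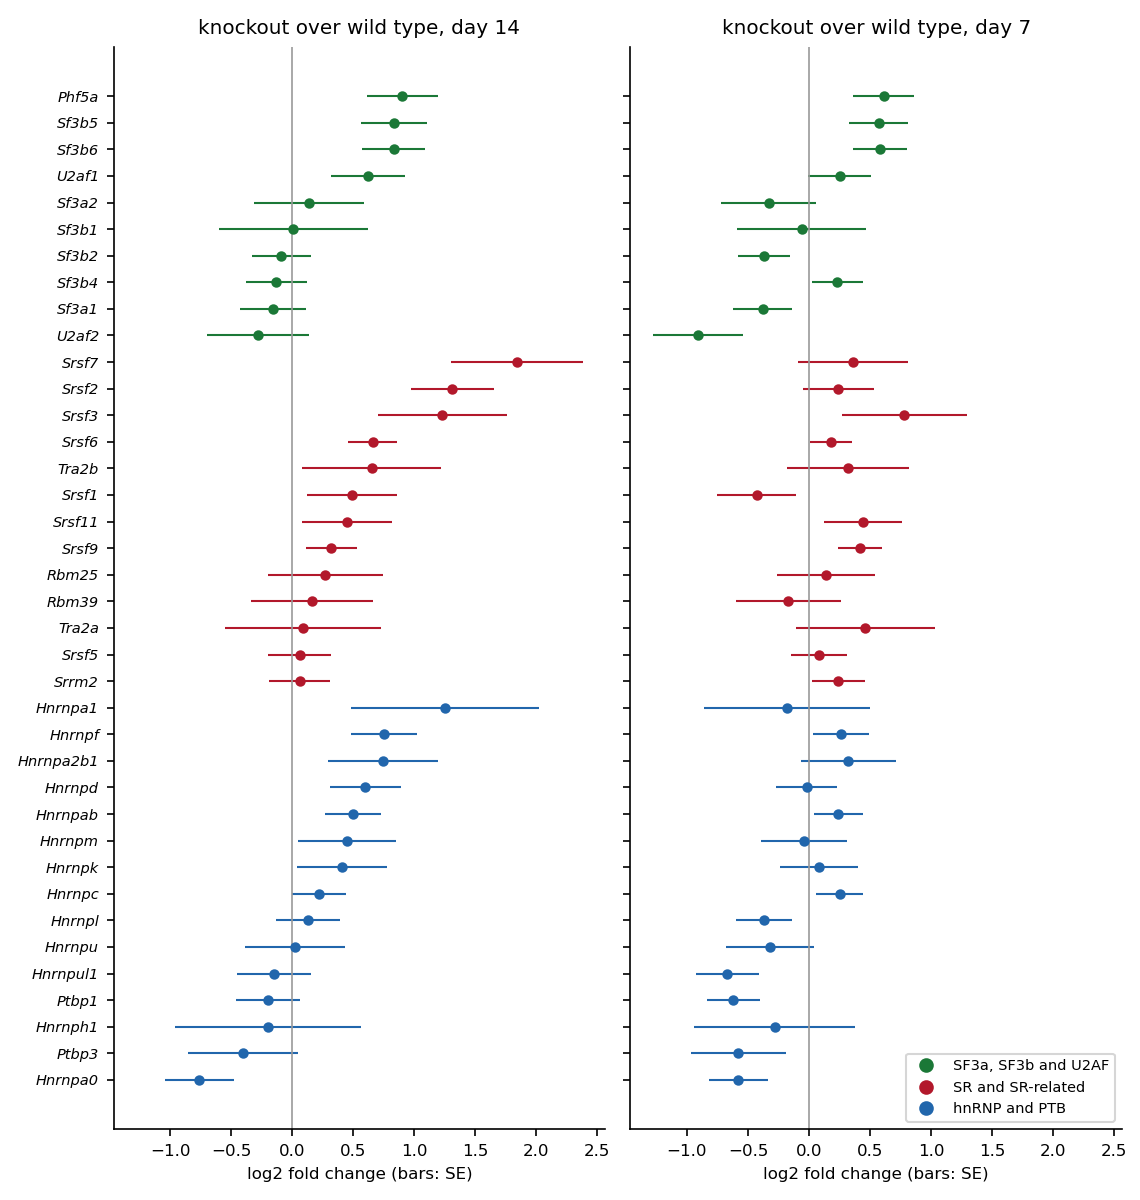
Log2 fold change of knockout over wild type for the 38 tested members at day 14 (left) and day 7 (right), with standard errors as bars, sorted within each family by the day 14 value. All 13 SR points lie above 0 at day 14 (10 with the length and GC trends removed), and 10 of 15 hnRNP and PTB points lie below 0 at day 7 (8 with upper-quartile scaling or with those trends removed).

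At day 7 the members of the 3 families stood on both sides of 0 and none passed the test. Of the SR and SR-related genes 11 of 13 had a positive log2 fold change (median 0.24), while 10 of 15 hnRNP and PTB genes had a negative one (median -0.18), or 8 of 15 with upper-quartile scaling or with the length and GC trends removed. SF3a, SF3b and U2AF genes split evenly, 5 positive and 5 negative. The median over the 38 members was 0.11, against -0.01 for all tested genes.

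The quasi-likelihood test called 0 of 38 members, against 0.0949% of all genes, and 0 under every alternative run, DESeq2 (4.42% of all genes) and limma-voom (0.112%) included. At an unadjusted p under 0.05 there were 8 members (21.1%), against 23.4% of all genes. The groups did not overlap in 9 members (23.7%), against 22.2% of all genes. Sf3b4, Sf3b5, Phf5a and Srsf2 were higher in every knockout library, and Sf3b2, U2af2, Hnrnpl, Hnrnpul1 and Ptbp1 were lower in every knockout library.

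U2af2 had the lowest log2 fold change of all members, -0.91 ± 0.37 (SE), with an adjusted p of 0.17 (edgeR). Its levels were 58.7, 47, 40.9 and 33.7 CPM in the knockout libraries and 103, 87.9, 80.9 and 66.6 CPM in the wild-type libraries, with no overlap. Phf5a led its family again, with 23.3, 21.8, 29.4 and 41 CPM in the knockout and 18.2, 18.2, 17.5 and 21.6 CPM in the wild-type libraries, and a log2 fold change of 0.61 ± 0.25 (SE). The groups came close, since the lowest knockout library was at 21.8 and the highest wild-type library at 21.6 CPM.

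In the SR family Srsf3 was highest at day 7 with a log2 fold change of 0.78 ± 0.51 (SE), on 2 to 18 reads per library. Srsf1, a general SR splicing factor, was lowest at -0.43 ± 0.32 (SE), with 8.91, 13.4, 11.7 and 9.65 CPM in the knockout and 20.2, 17.2, 10.5 and 11.1 CPM in the wild-type libraries, which overlapped. Its day 14 value was 0.49 ± 0.37 (SE).

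Among hnRNP and PTB genes, Hnrnpa2b1, a relative of Hnrnpa1, was highest with a log2 fold change of 0.32 ± 0.39 (SE). It had 311, 459, 434 and 396 CPM in the knockout and 306, 350.5, 283 and 339 CPM in the wild-type libraries, with overlap. Hnrnpul1, a relative of Hnrnpu, was lowest at -0.67 ± 0.26 (SE), with 135, 123, 94.2 and 90.4 CPM in the knockout against 197, 194, 164 and 149 CPM in the wild-type libraries and no overlap. With the trends over coding length and GC content removed its value was -0.21. Ptbp1, the polypyrimidine tract-binding repressor, is given for its place among the groups without overlap, with 634, 502, 454 and 355 CPM in the knockout and 787, 763, 777 and 654 CPM in the wild-type libraries. Its log2 fold change was -0.62 ± 0.22 (SE) with an adjusted p of 0.155 (edgeR).

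Coding length moved with these fold changes. Across the 38 members, Spearman's rho between coding length and the log2 fold change of knockout over wild type was -0.63 at day 14 and -0.63 at day 7, against -0.44 and -0.63 across all tested genes. Genes of one library share its preparation, so this is a description without a p. The 14 members under 1000 coding bases had a median log2 fold change of 0.63 at day 14 and 0.34 at day 7, and the 8 over 2000 bases had 0.02 and -0.19. Over all tested genes, those under 1000 bases had medians of 0.32 and 0.38, and those over 2000 bases -0.39 and -0.52. Without wild-type day 14 library 3 the day 14 rho was -0.32 across members and -0.26 across all genes, and the day 14 medians of members were 0.92 under 1000 bases and 0.51 over 2000 bases.

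For each library, the log2 level of a gene relative to its mean over all libraries was fitted over log2 coding length, across all tested genes. The slope was -0.299 to -0.0104 in the knockout and -0.0204 to 0.136 in the wild-type libraries at day 14. At day 7 the slope was -0.327 to 0.0201 in the knockout and 0.0626 to 0.253 in the wild-type libraries. With each library's trend over coding length and GC content removed, the day 7 value of Phf5a (333 coding bases) was -0.01 ± 0.21 (SE), and those of Sf3b5 (261 bases) and Sf3b6 (378 bases) were 0.01 and 0.02. U2af2 (1428 bases) stayed at -0.91 at day 7. At day 14 the same fit gave 1.52 for Srsf7, 0.51 for Srsf6 and 0.59 for Sf3b5, each past the threshold with adjusted p of 0.0439, 0.0392 and 0.047 (edgeR). It gave 0.09 for Phf5a and -0.16 for Sf3b6.

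**Figure D4:**
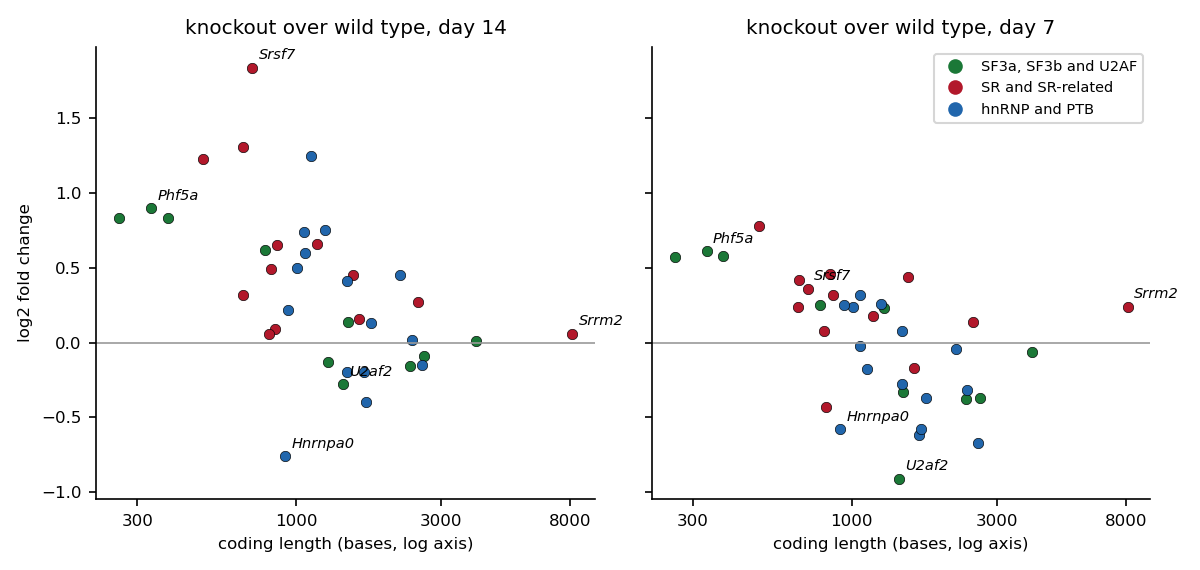
Log2 fold change of knockout over wild type (vertical axis) against coding length in bases (horizontal log axis) for the 38 tested members, at day 14 (left) and day 7 (right), coloured by family. Short genes such as Phf5a lie high at both days, and Hnrnpa0 lies low at both days although it has 918 coding bases.

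In knockout cells, 5 members changed between day 7 and day 14, and all 5 were SR or SR-related genes. Srsf7, Srsf3 and Srsf2 rose 4.73-fold, 3.6-fold and 2.42-fold. Srsf5 and Srrm2 fell 2.84-fold and 1.7-fold. The medians of the families were 0.36 for SR, 0.20 for SF3a, SF3b and U2AF, and -0.10 for hnRNP and PTB genes on the log2 scale, and the median over all members was 0.15, against 0.02 for all genes. No SF3a, SF3b, U2AF, hnRNP or PTB gene passed.

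The 5 calls were 13.2% of the 38 members, against 15.5% of all tested genes. Of all genes 10.5% were higher and 4.92% lower at day 14, and of the members 3 (7.89%) were higher and 2 (5.26%) lower. The day 14 and day 7 libraries did not overlap in 6 members (15.8%), against 23.8% of all genes: Srsf2, Srsf3, Srsf7, Tra2b and Hnrnpa1 were higher and Srsf5 lower in every day 14 library. The shares called in all, called higher and not overlapping were below the background, that called lower was close to it, and the SR calls are read only gene by gene.

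Srsf7 had 86.1, 181 and 320.4 CPM at day 14, against 34.1, 40.4, 43.4 and 47.5 CPM at day 7, with a log2 fold change of 2.24 ± 0.49 (SE) and an adjusted p of 0.00649 (edgeR). Srsf2 had 166, 318 and 413 CPM at day 14, against 121, 132, 118 and 123 CPM at day 7, with 1.27 ± 0.31 (SE) and an adjusted p of 0.0116 (edgeR). The day 7 libraries of both genes lay close together, while the highest and lowest day 14 libraries differed 3.72-fold for Srsf7 and 2.48-fold for Srsf2. Srsf3 (chr17:29032628-29043373, plus strand) had 0.709, 1.55 and 1.96 CPM at day 14, against 0.258, 0.439, 0.564 and 0.266 CPM at day 7, with 1.85 ± 0.50 (SE) and an adjusted p of 0.0216 (edgeR).

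Srsf5 (chr12:80945504-80950507, plus strand), an SR protein that binds exon enhancers, fell to 59.7, 31.1 and 45 CPM at day 14, against 104, 134, 147 and 128 CPM at day 7. The log2 fold change was -1.50 ± 0.25 (SE), with an adjusted p of 0.00115 (edgeR), and the groups lay far apart. Srrm2 had 453, 259 and 273 CPM at day 14, against 399.8, 513, 628 and 693 CPM at day 7, with -0.77 ± 0.24 (SE) and an adjusted p of 0.0413 (edgeR). Here the groups overlapped, since the highest day 14 library exceeded the lowest day 7 library. The Srrm2 call was lost in 10 of 14 fits with a library left out and in 6 of 10 other alternatives, with adjusted p of up to 0.178 (edgeR).

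No label names a batch. Lane and run identifiers of the deposited tables were read here as 2 series of runs, an inference, and all knockout day 7 libraries belong to one and all knockout day 14 libraries to the other, so that day and inferred run cannot be told apart within the knockout. A fit with this inferred run as a term, which rests on the wild-type libraries, called Srsf5 alone among the members (-1.63 ± 0.38, SE, adjusted p = 0.0328, edgeR), against 3.19% of all genes. It gave 1.75 for Srsf7, 1.33 for Srsf2 and 1.16 for Srsf3 on the log2 scale, with adjusted p of 0.209, 0.144 and 0.417. Without knockout day 14 library 3, Srsf5 was again the sole call, against 9.01% of all genes, and the adjusted p of Srsf7 was 0.0526 (edgeR). Without knockout day 14 library 2 there were 3 calls, Srsf2, Srsf5 and Srsf7, against 9.39% of all genes.

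**Figure D5:**
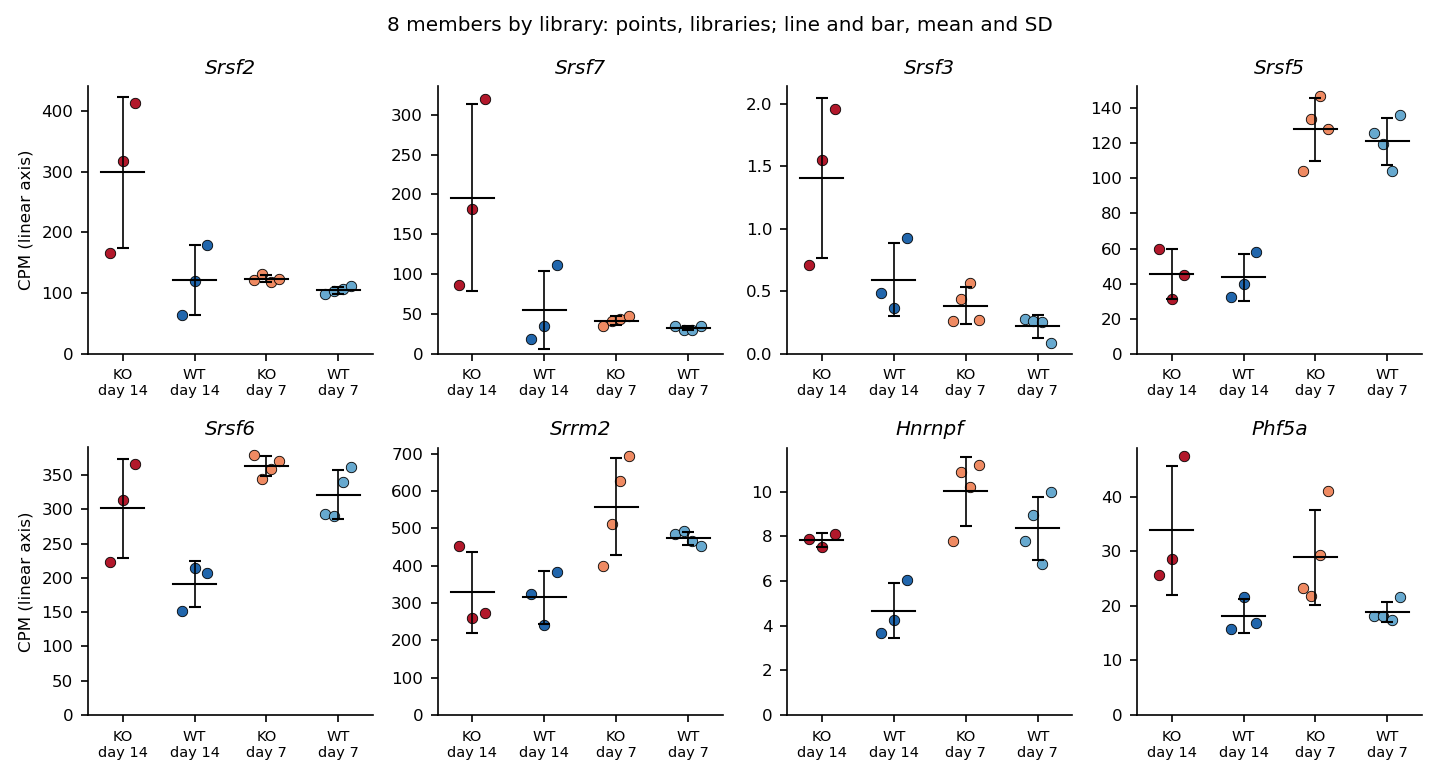
CPM (linear axes from 0) of 8 members by group, one point per library, with the mean and SD. Srsf2, Srsf7 and Srsf3 are spread widely at day 14 in both genotypes, and Srsf5 lies at 59.7 CPM or below in all 6 day 14 libraries and at 104 CPM or above in all 8 day 7 libraries.

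To compare genes that rose with one that fell, 150 bases upstream of the annotated start are given for Srsf2, Srsf7 and Srsf5, from RefSeq (GRCm38.p6). They are written 5′ to 3′ on the strand of the gene, with motif letters in capitals. The letters searched, on both strands of the 250 bases upstream, were TATAAA for the TATA box, found in 12.4% of 32851 mouse promoter sequences, and CCAAT for the box of that name, found in 33.8%. Those of ETS factors were CCGGAAG, found in 6.91%, and those of E2F were TTTCCCGC or TTTGGCGC, found in 1.3%. Those of the cell cycle element CHR were TTTGAA, found in 16%. No pair of these motifs overlapped in the stretches shown.
Srsf2, chr11:116853095-116853244, minus strand: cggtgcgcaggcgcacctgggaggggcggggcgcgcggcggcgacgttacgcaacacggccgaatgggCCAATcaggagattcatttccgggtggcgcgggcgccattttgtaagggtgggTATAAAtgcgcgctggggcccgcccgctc
Srsf7, chr17:80207306-80207455, minus strand: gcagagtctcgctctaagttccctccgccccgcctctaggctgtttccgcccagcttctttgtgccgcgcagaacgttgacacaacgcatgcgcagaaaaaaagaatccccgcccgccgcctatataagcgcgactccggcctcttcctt
Srsf5, chr12:80945349-80945498, plus strand: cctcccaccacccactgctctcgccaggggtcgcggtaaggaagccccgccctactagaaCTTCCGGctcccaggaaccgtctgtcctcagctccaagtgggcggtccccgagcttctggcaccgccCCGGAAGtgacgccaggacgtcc

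The Srsf2 stretch held a TATA box that begins 29 bases and a CCAAT box that begins 82 bases before the start. The Srsf5 stretch held the ETS letters at 90 bases (on the opposite strand) and at 23 bases before the start. Srsf7 had none of the letters in the 150 bases shown and ETS letters 218 bases before the start. Of the 34 members with a promoter in the table, 18 held CCAAT, 9 ETS, 5 CHR, 4 TATA and 4 E2F letters. These are matches of letters and not sites shown to be bound.

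In wild-type cells, 3 members fell between day 7 and day 14 and none rose. Srsf5 fell 2.8-fold, Hnrnpf fell 1.79-fold and Srsf6 fell 1.68-fold. Median log2 fold changes were -0.46 for hnRNP and PTB genes (13 of 15 negative), -0.44 for SR genes and -0.07 for SF3a, SF3b and U2AF genes, for which it was 0.04 with upper-quartile scaling. The median over all members was -0.28, against -0.00 for all genes. Without wild-type day 14 library 3 the medians were -1.0 for hnRNP and PTB genes, -0.75 for SR genes and 0.08 for SF3a, SF3b and U2AF genes (6 of 10 positive).

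The 3 calls were 7.89% of the members, against 20.5% of all tested genes. Of all genes 7.33% were lower at day 14, as were the 3 members (7.89%), and 13.2% were higher, against 0 members. In 7 members (18.4%) the days did not overlap, against 31% of all genes. Srsf3 and Srsf9 were higher and Srsf5, Srsf6, Srrm2, Hnrnpf and Ptbp1 lower in every day 14 library.

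Srsf5 had 32.3, 39.8 and 58.2 CPM at day 14, against 126, 119.5, 104 and 136 CPM at day 7. The log2 fold change of -1.48 ± 0.25 (SE), with an adjusted p of 0.00089 (edgeR), was nearly that in the knockout. Srsf6 fell to 152, 214 and 207 CPM at day 14, against 294, 289.9, 340.3 and 362 CPM at day 7, with -0.75 ± 0.19 (SE) and an adjusted p of 0.0108 (edgeR). Hnrnpf had 3.68, 4.27 and 6.06 CPM at day 14, against 7.77, 8.95, 6.74 and 9.99 CPM at day 7, with -0.84 ± 0.25 (SE) and an adjusted p of 0.0305 (edgeR). The Hnrnpf call was lost in 5 of 14 fits with 1 library left out, where its adjusted p reached 0.12 (edgeR), and in 6 of 10 other alternatives. Its reads are uncertain for the copies described above.

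Srsf7 was at 18.6, 34.7 and 111 CPM at day 14, against 34.2, 29.6, 29.6 and 35.1 CPM at day 7 in wild-type cells. Libraries 1 and 3 lay on opposite sides of the day 7 range, and the log2 fold change was 0.77 ± 0.48 (SE), or -0.27 without library 3. Srsf2 had 63.4, 119.6 and 179 CPM at day 14, against 97.6, 103, 107 and 111 CPM at day 7, with 0.21 ± 0.31 (SE).

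Without wild-type day 14 library 3, 12 members passed (31.6%), against 30.1% of all genes: Sf3b1, Srsf1, Srsf5, Srsf6, Srsf11, Srrm2, Hnrnpa1, Hnrnpa2b1, Hnrnpf, Hnrnpk, Hnrnpm and Hnrnpu. All had lower fitted levels at day 14 in that fit. Without wild-type day 14 library 1, Srsf5 was the only call, against 16% of all genes. With the trend over coding length and GC content removed there were 8 calls (21.1%), against 33.1% of all genes.

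The genotypes were compared in their change over time by the interaction of genotype and day, and no member passed. The log2 interaction was positive in 31 of 38 members, with a median of 0.33 against 0.06 for all genes. The test called 0 members and 0.0863% of all genes. DESeq2 and limma-voom also called 0 members, against 1.41% and 0.0949% of all genes. At an unadjusted p under 0.05 only Srsf2 remained (1 member, 2.63%), against 7.97% of all genes. Its interaction was 1.07 ± 0.44 (SE) with an adjusted p of 0.556 (edgeR). That of Srsf7 was 1.47 ± 0.69 (SE, adjusted p = 0.629, edgeR), and that of Srsf6 was 0.48 ± 0.26 (SE). Srsf5 stood at -0.02 ± 0.34 (SE). The rise of Srsf2, Srsf3 and Srsf7 in knockout cells is thus not shown to differ from the change in wild-type cells. Without wild-type day 14 library 3 there were 3 calls, Srsf7 (2.51), Hnrnpa2b1 and Hnrnpm, 7.89% of the members against 3.23% of all genes. The log2 interaction was then positive in 34 of 38 members, with a median of 0.56 against 0.11 for all genes.

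Few genes in the other parts of the splicing machinery were called between genotypes, unless wild-type day 14 library 3 was left out. Of 150 further genes in 11 lists (U1, Sm and LSm, U2, tri-snRNP, catalytic complexes, exon junction complex, minor spliceosome, SR kinases, other SR and hnRNP genes, other regulators and nonsense-mediated decay), 148 were tested. Between knockout and wild-type cells at day 14 only Lsm4, a subunit of the LSm ring, was called (0.676% of those tested, against 1.42% of all genes). It was at 136 ± 41.8 CPM in the knockout, against 67.1 ± 6.51 CPM in wild type (SD, n = 3 each). Its log2 fold change was 1.02 ± 0.22 (SE, adjusted p = 0.0351, edgeR). With wild-type day 14 library 3 left out, the value of Lsm4 was 0.94 (adjusted p = 0.0163, edgeR), and 33 listed genes were higher (22.3%, against 12.6% of all genes) and 4 lower (2.7%, against 9.89%), with 8 of the 14 Sm and LSm genes among those higher. The Sm and LSm genes had a median log2 fold change of 0.96 at day 14, or 0.98 without that library, and of 0.58 at day 7. Lsm4 has 417 coding bases, and all tested genes under 1000 bases had medians of 0.32 at day 14 and 0.38 at day 7. Values with the length and GC trends removed are not given for these genes. The part of coding length in their values was not tested. No listed gene passed at day 7, against 0.0949% of all genes. In the interaction none passed, against 0.0863% of all genes. Without wild-type day 14 library 3, 6 were higher in the interaction (4.05%, against 2.31% of all genes) and 1 lower (0.676%, against 0.919%).

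Between day 14 and day 7, 2 listed genes rose and 4 fell in knockout cells, and 3 rose and 18 fell in wild-type cells. In the knockout these were 1.35% higher, against 10.5% of all genes, and 2.7% lower, against 4.92%. In wild type they were 2.03% higher, against 13.2% of all genes, and 12.2% lower, against 7.33%. In the fit that left out wild-type day 14 library 3, 3 rose (2.03%, against 14.4% of all genes) and 48 fell (32.4%, against 15.7%) in wild type. In the knockout 7 then rose (4.73%, against 13.1%) and 9 fell (6.08%, against 7.5%). With all libraries in, those that rose were Snrpa, a U1 protein, and the splicing regulator Rbfox2 (1.48) in knockout cells, and Cd2bp2 (0.58), Pdcd7 (0.82) and Rbfox2 (2.95) in wild-type cells. Rbfox2 had few reads, 4 to 12 per day 7 library and 17 to 71 per day 14 library, so its values are imprecise. Besides Acin1 and Smg9, Cirbp (-1.50), a cold-inducible RNA-binding protein, and Isy1 (-0.90) fell in knockout cells. Isy1 also fell in wild-type cells (-0.84, adjusted p = 0.0304, edgeR), though not past the threshold without library 3 (adjusted p = 0.0705, edgeR). Of the 25 other splicing regulators, 7 fell in wild-type cells. Among SR protein kinases, which phosphorylate the arginine-serine domains, Srpk1 (log2 fold change -1.02), Srpk2 (-1.07) and Dyrk1a (-0.75) fell in wild-type cells. In the knockout their values were -0.58, -0.82 and -0.40, and none passed (adjusted p = 0.0897, 0.104 and 0.358, edgeR). Their interactions were 0.44, 0.26 and 0.36 (adjusted p = 0.847, 0.992 and 0.946, edgeR), so their falls are not shown to differ between genotypes. Dyrk1a did not pass in wild-type cells without library 3 (adjusted p = 0.0769, edgeR). The exon junction gene Acin1 fell in both, by 0.74 in knockout and 0.75 in wild-type cells on the log2 scale. Of the nonsense-mediated decay genes, Smg9 fell in both (-0.90 in knockout and -1.19 in wild-type cells), and Smg1, Smg6 and Upf3a fell in wild-type cells. Smg6 no longer passed without wild-type day 14 library 3 (adjusted p = 0.0546, edgeR), and Smg1 then also passed in the knockout (-1.34, adjusted p = 0.0397, edgeR).

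Sf3b3, the SF3b subunit named in the title of the series, is given for reference. At day 14 it had 315, 636 and 299.9 CPM in the knockout libraries and 389.6, 667 and 578 CPM in the wild-type libraries, with overlap and a log2 fold change of -0.38 ± 0.34 (SE), or -0.34 without wild-type library 3. At day 7 it had 588, 496, 335 and 232 CPM in the knockout and 661, 759, 705 and 746 CPM in the wild-type libraries, with no overlap. The day 7 log2 fold change was -0.80 ± 0.30 (SE) with an adjusted p of 0.157 (edgeR), and -0.26 with the trend over coding length (3654 bases) and GC content removed.

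In the same libraries, 14 of 20 S phase genes and 18 of 20 G2 and M phase genes rose between day 7 and day 14 in knockout cells, against 10.5% of all genes. In wild-type cells 6 and 11 did, against 13.2% of all genes. Between genotypes at day 14, no S phase gene and 2 G2 and M phase genes were called, all higher in the knockout. When wild-type day 14 library 3 was left out, 16 and 20 rose in knockout cells (13.1% of all genes). No S phase gene and 1 G2 and M phase gene then rose in wild-type cells (14.4% of all genes). At day 14, 18 S phase and 19 G2 and M phase genes were then higher in the knockout (12.6% of all genes). That library was set apart above by its G2 and M phase level. Counts of cell cycle genes without it are thus partly built in and are no independent support. The part of these cell cycle genes in the change of the SR genes was not tested.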

How the data were processed

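RNA of 14 libraries was sequenced as paired ends from total RNA, per the labels' protocols. The authors deposited whole-number read counts and RPKM values per coding gene, with a coding width that is a multiple of 3 for 86.7% of genes (called coding length here). Reads were aligned with GSNAP 2013-11-01 to GRCm38 (per the submitters' processing notes). For the counting step, the tool, its annotation, its use of strand and its treatment of reads with several matches were not given in the sources used here. Genes with copies or overlapping genes are therefore uncertain. RPKM values were used only to check library totals.

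Counts were scaled by TMM and tested with edgeR 4.0.16 in R 4.3.3 (filterByExpr, glmQLFit and glmQLFTest), with the 4 groups in 1 fit and Benjamini-Hochberg adjustment over 11591 genes. Standard errors are the absolute log2 fold change divided by the square root of F. DESeq2 1.42.0, limma-voom (limma 3.58.1), RLE and upper-quartile scaling, no filter, a filter at 10 CPM in 3 libraries, the compared groups alone, a replicate block, a run term, offsets for the trends of each library over coding length and GC content, and leaving out each library were the alternatives. The fit was tested on simulated data. Total counts of 23326248 to 35803197 reads leave genes such as Srsf3 and Hnrnpa1 imprecise.

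Members and gene lists were chosen with earlier results of these data known. Values per library are given for members past the threshold, the highest and lowest log2 fold change per family and day between genotypes, the highest level per family and members under 5 CPM in every group. Other genes named were chosen after their values were seen. Shared sequence was counted as coding 50-base stretches found in other transcripts of GENCODE release 21, and promoters came from the RefSeq table for GRCm38.p6. Replicate numbers come from the titles.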

Additional observations from a re-analysis of the deposited data

Results flagged for a closer look

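In 2 of 78 groups of 4 libraries, a single library lay far from the other members of its group by Dixon's test at the 95% level, which chance gives in about 1 in 20 groups. Srsf3 had 0.0836 CPM, on 2 reads, in wild-type day 7 library 4, a gap of 0.882 of the range. Rbm25, an SR-related protein bound to U1 snRNP, had 63.5 CPM in knockout day 7 library 1, a gap of 0.87 of the range.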

How the results depend on the processing

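Between knockout and wild type at day 14, 0 members were called in the fit reported, 7 by DESeq2 (8.57% of all genes), 2 by limma-voom (3.49%), 1 with the replicate block (2.04%) and 3 with the length and GC trend removed (4.97%). At day 7 the median of the members was 0.22 with upper-quartile scaling, which moved the median of all genes to 0.09, and 0.01 with the trend removed. For knockout cells between the days, calls numbered 3 with a filter at 10 CPM (13.1%) and 1 with the run term (3.19%), and the median was 0.09 without a filter, 0.04 at 10 CPM, 0.03 with the run term and -0.10 with the trend removed, where that of all genes was -0.15. In wild-type cells the trend-removed fit called 8 (33.1%), with a median of all genes of -0.13, and upper-quartile scaling moved that median to 0.11. The causes were not tested.

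With 1 library left out, calls ranged over 0 to 0 at day 7, 0 to 14 at day 14, 1 to 7 for knockout time, 1 to 12 for wild-type time and 0 to 3 for the interaction. The share of all genes called ranged over 0.0691% to 0.119%, 0.357% to 22.5%, 9.01% to 20.6%, 14.9% to 30.1% and 0.00849% to 3.23%. Medians ranged over 0.06 to 0.20, 0.16 to 0.82, -0.05 to 0.25, -0.37 to -0.20 and 0.20 to 0.56 in the same order. Of the 38 members, 6 changed sign at day 7 and 9 at day 14 between genotypes with the trend removed, and without wild-type day 14 library 3, 4 did at day 14 and 8 in wild-type cells over time. Among members given by library for a comparison, directions turned for Phf5a at day 7 with the trend removed (-0.01), for Srrm2 at day 14 with the compared groups alone (-0.03), with the run term (-0.02) and over -0.25 to 0.22 with a library left out, and for U2af2 at day 14 (-1.08 to 0.05 with a library left out).

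Same-numbered libraries did not deviate together throughout (correlations from -0.456 to 0.417). Between knockout and wild type at day 14 the correlations were 0.194, 0.35 and 0.0495. With so few libraries per group these values cannot tell if the numbers mark pairs, and the labels do not say. With the replicate block, Srsf2 was the call at day 14 (adjusted p = 0.0416, edgeR), and 4 members were called in knockout (13.9% of all genes) and 2 in wild-type cells (19.2%) between the days.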
